A study of Mus musculus with 6 samples.

Results

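Chondroitin sulfate and dermatan sulfate are sulfated sugar chains carried by proteoglycans, and the genes described here encode the Golgi enzymes that place sulfate on these chains or turn their glucuronic acid into iduronic acid. The set was a list of 10 mouse genes, Chst3, Chst7, Chst11, Chst12, Chst13, Chst14, Chst15, Ust, Dse and Dsel. Each probe set was assigned to a gene through the RefSeq accession in its name. In this way 8 of the 10 genes were found, with 9 probe sets, among the 909 named genes and 1246 probe sets of the table. Ust had 2 probe sets and the other 7 genes had 1 each. The sulfotransferase Chst13 and the epimerase Dse are not analysed here.

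The arrays compared 3 samples of liver total RNA from male mice with insulin-deficient diabetes with 3 from healthy wildtype males, with 1 sample on each Affymetrix array. The study asked whether glycosaminoglycan enzymes are less expressed in the diabetic liver, in connection with the turnover of plasma lipids. The sources used here give neither the way the diabetes was brought about nor the strain or age of the mice. The labels number the samples 1 to 3 in each group without saying that each came from a separate animal, so the p-values may measure only technical spread between samples.

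The chains begin as a repeat of glucuronic acid and N-acetylgalactosamine. Sulfotransferases then transfer sulfate from the donor PAPS to carbon 4 or carbon 6 of the galactosamine and to carbon 2 of the uronic acid, while an epimerase turns chondroitin into dermatan by making iduronic acid. In liver, chains of this kind are carried for instance by decorin, biglycan and versican, matrix proteoglycans made mainly by stromal cells.

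The values are log2 expression values made by the authors with RMA, a method that corrects the background of an array, normalizes arrays to each other and joins several probes into 1 value per probe set. They ran from 2.03 to 13.45, with array medians between 4.93 and 5.06. Of the hepatocyte markers, 6 of 7 were measured, and all 6 lay above the median probe set. Among them Asgr1, a subunit of the hepatocyte asialoglycoprotein receptor, was at 12.32 in both groups. Other markers of the list differed, such as Mbl2 by 1.03 and Igfals by -0.61. In a bulk sample, fewer cells of a type and less RNA per cell cannot be told apart. Detection calls were not used, and low values may therefore be background signal.

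In diabetic liver, as in wildtype liver, Ust was the 1 gene of the set with a probe set well above the median of all probe sets. The mean over the 6 arrays was 7.41 ± 0.36 for Ust (SD), at the percentile 79.1 of all probe sets. Chst15 followed at 5.09 ± 0.10, percentile 51.9, and then Chst12 at 4.77 ± 0.13, Chst14 at 4.64 ± 0.07, Chst7 at 4.57 ± 0.11, Chst3 at 4.35 ± 0.16 and Chst11 at 4.25 ± 0.24. Dsel was the dimmest at 2.83 ± 0.10, percentile 7.14. These are array values, and probe sets also differ in brightness for reasons other than the amount of RNA, so the order is not an order of transcript amounts. The ranges of Ust and Chst15, of Chst15 and Chst12, and of Chst11 and Dsel did not overlap over the 6 arrays, and the order of each of these pairs was the same on all 6. From Chst12 down to Chst11 each gene overlapped with the next. In all, 6 of the 8 genes lay below the median probe set.

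**Figure D1:**
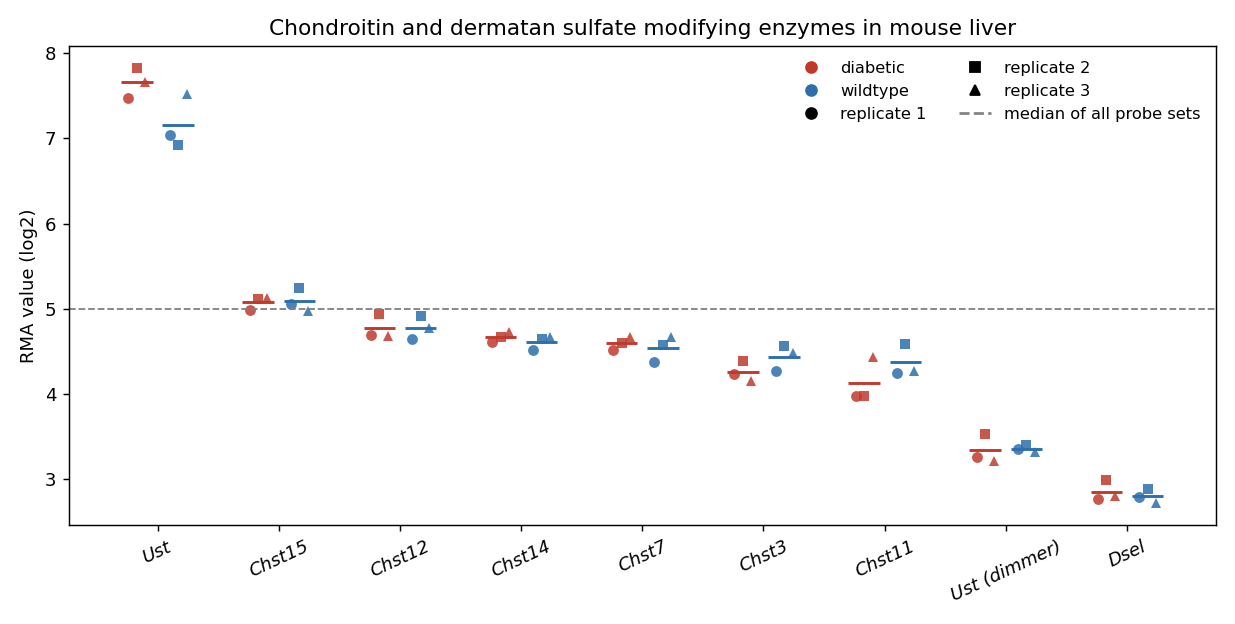
RMA values (log2, vertical axis) of the 9 probe sets, ordered by their mean; each point is 1 array, horizontal bars are group means, diabetic in red left of wildtype in blue, and point shape gives the replicate number. Ust at its brighter probe set lies between 6.92 and 7.83, while all other probe sets lie near or below the dashed median of all probe sets.

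None of the sulfotransferases or the epimerase passed the test. By limma, with p-values adjusted by Benjamini-Hochberg across the 1246 probe sets, 0 of the 8 genes had an adjusted p under 0.05, where 4 of 1246 probe sets, or 0.321%, did. With an unadjusted p under 0.05 there was 1 gene, Ust, against 2.97% of all probe sets. By limma, the unadjusted p of Ust was under 0.05 in 8 of 14 settings, down to 0.00245 without wildtype 3. The ordinary linear model was not among these 14. It was 0.0603 with quantile normalization and 0.0878 as the mean of both probe sets. Without diabetic 2, diabetic 3, wildtype 1 or wildtype 2 it lay between 0.0637 and 0.0954. The groups overlapped for all 8 genes, while they did not overlap for 7.87% of all probe sets. Means were higher in diabetic liver for 4 genes (Ust, Chst7, Chst14 and Dsel) and lower for 4 (Chst11, Chst3, Chst12 and Chst15), where 50.6% of all probe sets had a higher mean. The median difference, diabetic minus wildtype, was 0.023 on the log2 scale, and 0.002 over all probe sets. In 5 of the 8 genes the difference was under 0.06 in size, against 36.5% of all probe sets. That cut was not among the settings planned and lies just above the values of these 5 genes. The count is therefore a description only.

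Ust encodes uronyl 2-O-sulfotransferase, which sulfates carbon 2 of the uronic acid in dermatan and chondroitin sulfate. Its brighter probe set read 7.48, 7.83 and 7.66 in diabetic livers 1, 2 and 3, against 7.04, 6.92 and 7.52 in wildtype livers 1, 2 and 3. Wildtype 3 lay above diabetic 1, and the other 2 wildtype arrays lay below all diabetic arrays. Diabetic livers averaged 7.66 ± 0.18 and wildtype livers 7.16 ± 0.32 (SD, n = 3 each). The difference was 0.50 with a standard error of 0.18 and a 95% confidence interval of 0.07 to 0.93, or 1.41-fold with an interval of 1.05 to 1.90. It did not pass the test, with a limma unadjusted p of 0.0288, rank 18 among the 1246 probe sets, and an adjusted p of 0.928. An exact two-sided permutation test gave p = 0.2, and with 3 arrays against 3 it cannot go below 0.1.

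The dimmer Ust probe set gave nearly equal means. It read 3.26, 3.53 and 3.21 in diabetic livers 1, 2 and 3, against 3.36, 3.40 and 3.32 in wildtype livers 1, 2 and 3, and the groups overlapped. The difference was -0.02, with a confidence interval of -0.27 to 0.23 (limma adjusted p = 0.99). Both probe sets name the same transcript, but their values were 4.06 apart on the log2 scale. The suffix of the brighter one (s_at) marks a probe set that can match more than 1 transcript, and that of the dimmer one (x_at) marks probes that can also match other sequences. The mean of both probe sets differed by 0.239 (limma adjusted p = 0.926). Which of them follows the Ust transcript was not tested.

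**Figure D2:**
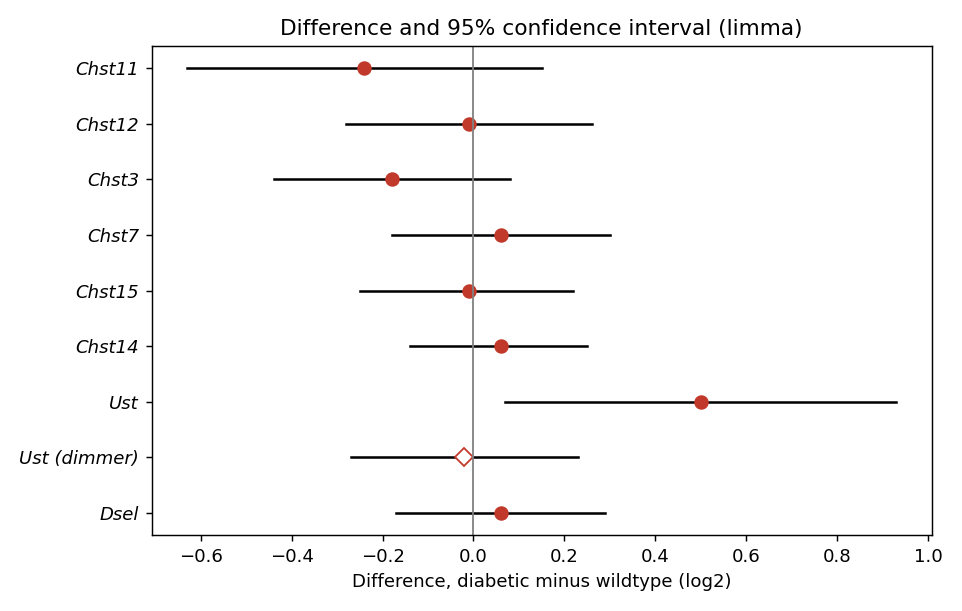
Difference between diabetic and wildtype liver on the log2 scale (horizontal axis) for each probe set, with its 95% confidence interval from limma as a line; the open diamond is the dimmer probe set of Ust. Ust at its brighter probe set, at 0.50, has the only interval that leaves out 0, and no probe set passed the threshold after adjustment.

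Sulfate on carbon 4 of galactosamine is added by Chst11 and Chst12, chondroitin 4-O-sulfotransferases. Chst11 read 3.98, 3.98 and 4.43 in diabetic livers 1, 2 and 3, against 4.25, 4.59 and 4.27 in wildtype livers 1, 2 and 3. Diabetic 1 and 2 were the lowest of the 6 arrays, while diabetic 3 lay above 2 of the wildtype arrays. Diabetic livers averaged 4.13 ± 0.26 and wildtype livers 4.37 ± 0.19 (SD, n = 3 each), so that diabetic liver differed by -0.24, with an interval of -0.63 to 0.15 (limma adjusted p = 0.928, unadjusted p = 0.181). This difference depended on single arrays: it was -0.39 without diabetic 3, with an unadjusted limma p of 0.0302, and -0.13 without wildtype 2.

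Chst12 gave nearly the same mean in both groups. It read 4.69, 4.94 and 4.68 in diabetic livers 1, 2 and 3, against 4.65, 4.91 and 4.77 in wildtype livers 1, 2 and 3. Array 2 was the highest of each group. The difference was -0.01 with a confidence interval of -0.28 to 0.26 (limma adjusted p = 0.99), and its sign turned without diabetic 1, without diabetic 3 and without wildtype 2.

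Chst3 and Chst7 encode chondroitin 6-O-sulfotransferases, which act on carbon 6 of the galactosamine. Chst3 read 4.23, 4.39 and 4.15 in diabetic livers 1, 2 and 3, against 4.27, 4.56 and 4.48 in wildtype livers 1, 2 and 3. Diabetic 2 lay above wildtype 1, and the other diabetic arrays lay below all wildtype arrays. Diabetic livers averaged 4.26 ± 0.12 and wildtype livers 4.44 ± 0.15 (SD, n = 3 each), and the difference was -0.18, with an interval of -0.44 to 0.08 (limma adjusted p = 0.928, unadjusted p = 0.143). Chst7 read 4.52, 4.60 and 4.67 in diabetic livers 1, 2 and 3, against 4.38, 4.57 and 4.67 in wildtype livers 1, 2 and 3. The groups overlapped, and the difference was 0.06 with a confidence interval of -0.18 to 0.30 (limma adjusted p = 0.99). The Chst3 difference was -0.121 without wildtype 2, and that of Chst7 was -0.024 without wildtype 1.

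Chst15 adds sulfate to carbon 6 of a galactosamine that already carries one on carbon 4, which makes the disulfated chondroitin sulfate E unit. It read 4.99, 5.12 and 5.13 in diabetic livers 1, 2 and 3, against 5.06, 5.25 and 4.97 in wildtype livers 1, 2 and 3. All diabetic arrays lay within the range of the wildtype arrays. The difference was -0.01 with a confidence interval of -0.25 to 0.22 (limma adjusted p = 0.99), and it was 0.062 without wildtype 2 and 0.031 without diabetic 1.

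Of the dermatan branch, Chst14, the dermatan 4-O-sulfotransferase, and Dsel, an epimerase related to Dse, were measured, while Dse itself is not analysed here. Chst14 was the steadiest gene of the set, at 4.61, 4.67 and 4.73 in diabetic livers 1, 2 and 3, against 4.52, 4.64 and 4.67 in wildtype livers 1, 2 and 3. The groups overlapped, and the difference was 0.06 with a confidence interval of -0.14 to 0.25 (limma adjusted p = 0.975). Without wildtype 1 it was 0.011. Dsel read 2.77, 2.99 and 2.80 in diabetic livers 1, 2 and 3, against 2.79, 2.88 and 2.72 in wildtype livers 1, 2 and 3. Array 2 was again the highest of each group. The Dsel difference was 0.06 with a confidence interval of -0.17 to 0.29 (limma adjusted p = 0.985), and it was -0.012 without diabetic 2. The Dsel probe set also carries the s_at suffix. It lay at percentile 7.14, where a value near background can hide a change in RNA.

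The confidence intervals limit the size of a change in the array values, to about the same degree as for all probe sets. A fall of 0.5 on the log2 scale lay outside the 95% confidence interval for 7 of the 8 genes (82.1% of all probe sets), with Chst11 as the exception. A rise of 0.5 lay outside it for 7 of the 8 (83.9% of all probe sets), with Ust as the exception. Changes of 1 in either direction lay outside all 8 intervals (95.8% of all probe sets for a rise and 96.5% for a fall). The residual SD between arrays of a group ran from 0.07 for Chst14 to 0.26 for Ust, with a median of 0.13 for the set and 0.14 for all probe sets. These limits hold for the array value only, since a value near background can hide a change in RNA. That concerns the 6 genes below the median probe set and also Chst15, which lay just above it. For Ust they hold for the brighter probe set, while the dimmer one gave a difference of -0.02. If the samples are not from separate animals, the intervals may cover only technical spread.

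The arrays numbered 1 were low for these genes in both groups. On diabetic 1, Ust was the 1 of 8 genes above its own mean over the 6 arrays, and on wildtype 1 there were 0 of 8, where 44.1% and 45.0% of all probe sets lay above their own means on those arrays. Diabetic 1 and wildtype 1 each gave the lowest value of their group for 5 of 8 genes, against 40.3% and 35.6% of all probe sets, and the highest for 0 of 8. Diabetic 2 and wildtype 2 each lay above the gene's mean for 7 of 8 genes, against 51.4% and 55.8% of all probe sets. The exception on diabetic 2 was Chst11, and that on wildtype 2 was Ust, which had its lowest value of all there. Wildtype 2 gave the highest value of all 6 arrays for Chst11, Chst3 and Chst15. Taking the shared number as a block called 0 of the 8 genes (0% of all probe sets). With 1 array of each group per number, the block cannot move the differences, only their errors and p-values. These deviations were mostly under 0.2 in size, and whether they belong to the animals or to the handling was not tested.

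**Figure D3:**
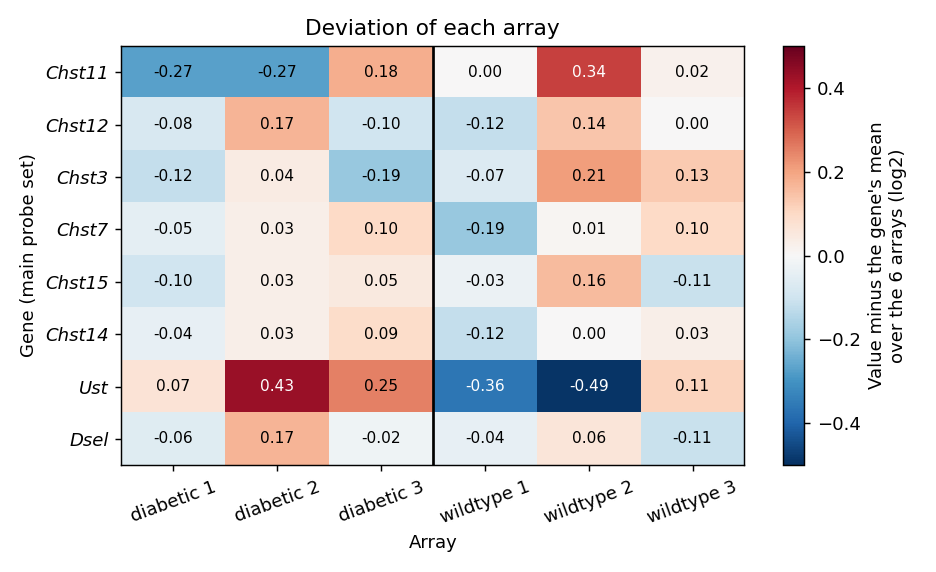
Value of each array (columns, diabetic left of wildtype) minus the mean of that gene over the 6 arrays (log2), for the main probe set of each of the 8 genes (rows). Wildtype 1 has 0 genes above their mean, wildtype 2 has 7 of 8, and Ust has the widest spread, from -0.49 on wildtype 2 to 0.43 on diabetic 2.

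Around these enzymes, 1 gene of the same pathway passed the test. Papss2, which makes the sulfate donor PAPS, read 10.61, 10.52 and 10.44 in diabetic livers 1, 2 and 3, against 9.51, 9.68 and 9.79 in wildtype livers 1, 2 and 3. Its probe set also carries the s_at suffix and can match more than 1 transcript. The difference was 0.87 (limma adjusted p = 0.0412), and with the replicate number as a block the adjusted p was 0.215. Leaving out any 1 array also ended that call, with adjusted p between 0.0568 and 0.323. The other measured donor genes were not called, with -0.13 for the PAPS synthase Papss1 and 0.08 for the PAPS transporter Slc35b3, which was -0.04 without diabetic 3.

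The enzymes that build the backbone held 0 called genes. Of 5 chondroitin polymerisation enzymes, 2 had higher and 3 lower means in diabetic liver, with a median difference of -0.02. The synthase Chsy1 differed by -0.26, from -0.46 without diabetic 3 to -0.05 without diabetic 1, the polymerisation partner Chpf by -0.11, and the galactosaminyltransferases Csgalnact1 and Csgalnact2 by 0.00 and -0.02. All 5 measured enzymes of the linkage region, the short sugar stem that joins the chain to its core protein, had lower means, with a median of -0.13 and 0 called. Xylt1, a xylosyltransferase, differed by -0.16, and the linkage enzymes B4galt7 and B3gat3 by -0.15 and -0.13. The sign held for B4galt7 and Xylt1 without any 1 array, while B3gat3 was at 0.00 without diabetic 3, and 3 of the 5 enzymes turned sign without at least 1 array.

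Enzymes that break the chains down had 4 higher and 4 lower means among 8 measured genes and 0 called. Glb1, a lysosomal galactosidase, differed by 0.35, Arsb, which removes sulfate from carbon 4 of galactosamine, by 0.24, and Idua, the iduronidase, by -0.48. Their values on wildtype 3 were the lowest of the 6 arrays for all 3, at 6.08 for Glb1, 7.66 for Arsb and 4.77 for Idua, and without that array the differences were 0.17, 0.13 and -0.87.

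Core proteins that carry chondroitin or dermatan sulfate showed 4 higher and 9 lower means among 13 measured genes, with a median of -0.02 and 0 called. Decorin, Dcn, read 7.19, 7.50 and 7.76 in diabetic livers 1, 2 and 3, against 7.62, 7.11 and 8.35 in wildtype livers 1, 2 and 3, a difference of -0.21 that was 0.12 without wildtype 3 and -0.50 without wildtype 2. Biglycan, Bgn, differed by 0.09, which was -0.08 without wildtype 2 and 0.34 without wildtype 3, and versican, Vcan, by -0.01 at a mean of 2.94 in diabetic and 2.95 in wildtype liver. Ptprz1, a receptor phosphatase, had the smallest unadjusted p of the list (0.0436, limma adjusted p = 0.928) with a difference of 0.20 at a dim probe set, at percentile 5.22. Cd74, the invariant chain, differed by -0.41, from -0.61 without diabetic 3 to -0.11 without wildtype 3. Bcan, brevican, differed by 0.07, from 0.02 without diabetic 2 to 0.13 without diabetic 1.

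Other carbohydrate sulfotransferases, which act on keratan sulfate, N-glycans or the HNK-1 epitope, were all measured, and all 7 lay below the median probe set. Of these, 2 had higher and 5 lower means, with a median of -0.05 and 0 called. The smallest unadjusted p values belonged to Chst10, Chst9 and Chst8, with differences of 0.14, 0.08 and -0.12 (limma adjusted p = 0.928 for Chst10 and Chst9 and 0.942 for Chst8). The heparan sulfate enzymes that do the same kinds of reaction both had higher means without passing. Glce, the heparan sulfate epimerase, differed by 0.43 (limma adjusted p = 0.928), and Hs2st1, the heparan sulfate 2-O-sulfotransferase, by 0.09, which was -0.03 without wildtype 3. These are array values of RNA and do not measure the reactions. Among the genes of the set, Ust differed by 0.50 at the brighter probe set and by -0.02 at the dimmer one. The epimerase Dsel differed by 0.06.

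**Figure D4:**
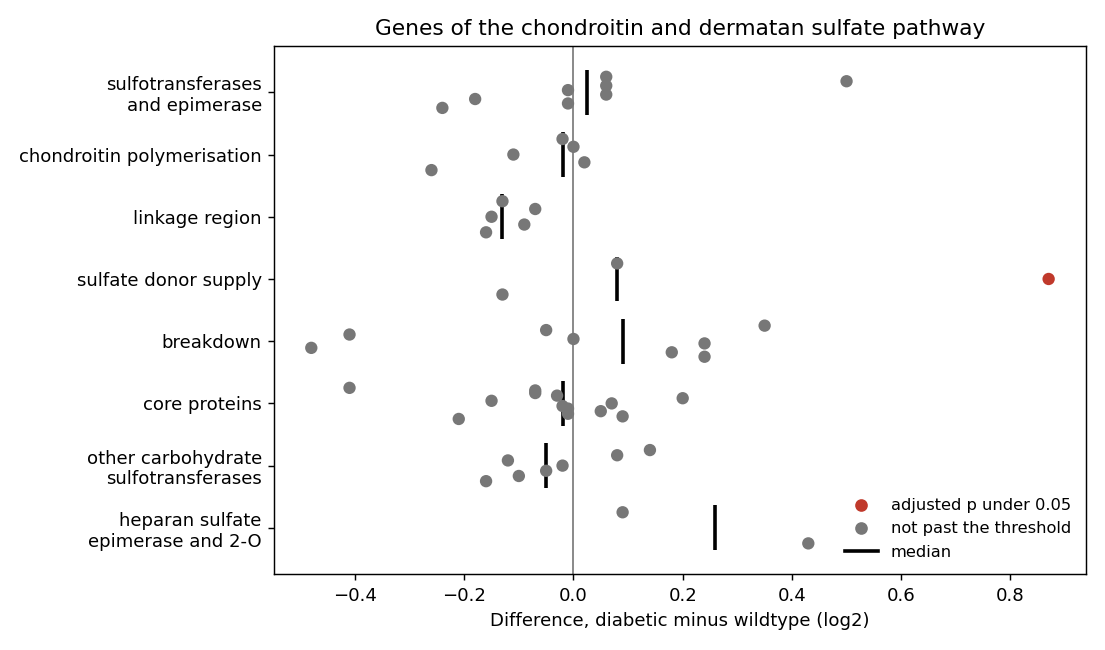
Difference between diabetic and wildtype liver on the log2 scale (horizontal axis) for each measured gene of the set and of 7 related lists (rows); each point is 1 gene, black bars are list medians, and the red point passed the adjusted threshold. Papss2, at 0.87 in the sulfate donor list, is the only red point, and Ust, at 0.50, is the gene of the set farthest from 0.

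Of the 6 measured hepatocyte markers 1 was called. This was Mbl2, a mannose-binding lectin, which averaged 12.25 ± 0.09 in diabetic livers and 11.23 ± 0.22 in wildtype livers (SD, n = 3 each), a difference of 1.03. Its limma adjusted p was 0.0412, or 0.142 with the replicate number as a block, and between 0.0484 and 0.323 with 1 array left out. Igfals, a plasma protein of the IGF complex, differed by -0.61 (limma adjusted p = 0.928), and Mbl1 by 0.27. The groups did not overlap for Igfals, as for 7.87% of all probe sets. The sum of the hepatocyte markers off the log scale was 14721 to 15781 in diabetic and 11726 to 14277 in wildtype livers. Of these markers 3 had higher and 3 lower means in diabetic liver. The sum follows its brightest members, among them Mbl2, rather than the markers as a set, and a sum without Mbl2 was not made. Markers of stromal and other non-hepatocyte cells were given by the same arrays. Of 12 stellate cell and fibroblast markers 3 were measured, with 0 called and a median difference of -0.10. They were Pdgfrb, Pdgfra and Lum, with differences of -0.38, -0.10 and 0.04. Pdgfrb, the brightest, read 5.15, 5.60 and 6.03 in wildtype livers 1, 2 and 3. The sum of the stromal values, which mostly follows Pdgfrb, was 56 to 62 in diabetic and 60 to 90 in wildtype livers. The same sum was 503 to 807 in diabetic and 631 to 790 in wildtype livers for 7 of 13 endothelial markers, and 363 to 627 in diabetic and 411 to 611 in wildtype livers for 6 of 11 macrophage markers, with 0 called in each. For 5 of 10 lymphocyte markers it was 92 to 105 in diabetic and 91 to 99 in wildtype livers, with 0 called. These sums also follow their brightest markers, such as Clec4g among the endothelial ones, at a mean of 8.58. The 4 cholangiocyte markers are not analysed here. The part of these cells in the values of the sulfotransferases was not tested.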

How the data were processed

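Liver RNA samples of diabetic and wildtype mice were measured, 1 per array and 3 of each group. Per the submitters' processing notes, the authors made the deposited values with RMA, whose version the sources used here do not give. From their range these deposited values were taken to be on the log2 scale. Of 1246 probe sets, 984 carried a RefSeq accession and 963 matched a gene in a RefSeq table (GRCm38.p6), used for names only. A gene with several probe sets was represented by that with the highest mean over the arrays. The number of arrays limits the precision.

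Diabetic and wildtype arrays were compared with limma 3.58.1 in R 4.3.3 (lmFit, eBayes, 4 residual and 2.44 prior degrees of freedom) over all probe sets, with Benjamini-Hochberg adjustment and a threshold of 0.05. Exact permutation tests used scipy 1.17.1. On simulated data for this comparison, with 200 of 1246 probe sets changed, 60.2% of changes of 0.5 and 89.2% of changes of 1 on the log2 scale were called, and 4.24% of calls were false. The data gave 4 calls, and under this adjustment a smaller share is recovered when fewer probe sets change. The simulated noise was also independent between arrays. Other numbers of changed probe sets were not simulated, so these shares do not give the recovery for these data.

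The genes and lists were chosen with earlier results of these data known. Genes outside the set were named by rule: up to 3 of each list by smallest p, 8 set genes, and the 3 nearest in profile to Ust. Deviations of same-numbered arrays from their group means correlated at 0.397, 0.138 and 0.162 for numbers 1, 2 and 3, all above the limit of 0.1 for pairs, so a fit with that number as a block was run. The labels do not say what a number stands for. The alternatives were a median shift, quantile normalization, a filter on probe sets dimmer than the median, trend and robust eBayes, array weights, an ordinary linear model, the mean of a gene's probe sets, the block and leaving out each array.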

Additional observations from a re-analysis of the deposited data

How the results depend on the processing

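The count of called genes of the set was 0 under every alternative run. The block of the replicate number, with 0 called, changed no call of the set; over all probe sets it gave 0 calls in place of 4. That count was also 0 with trend and robust eBayes and with the ordinary linear model, and between 0 and 1 with 1 array left out, which has fewer samples behind it. For the first 3 of these settings the cause was not tested. The median difference of the set, 0.023, was 0.242 without the dimmer probe sets, where only Ust and Chst15 were left. The Ust difference stayed positive throughout, from 0.378 without wildtype 2 to 0.678 without wildtype 3. As the mean of both probe sets it was 0.239. Its limma adjusted p ran from 0.336 to 0.995 over the 14 settings, which leave out the ordinary linear model. The sign turned for Chst12 (0.002 with quantile normalization, 0.034 with array weights, -0.095 to 0.059 with 1 array left out), Chst15 (0.01 with quantile normalization, -0.074 to 0.062), Chst7 (-0.024 to 0.12) and Dsel (-0.012 to 0.102); the cause was not tested. Chst3, Chst11, Chst14 (0.011 to 0.088 with 1 array left out) and Ust kept their sign. For dim probe sets the unknown signal over background is the limit.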

Other observations

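The genes outside the set whose profile over the 6 arrays was nearest to that of Ust were Gnpda1, Btg2 and Mbl1. The measure was the mean absolute difference of log2 values after each gene's own mean was taken off, which was 0.114 for Gnpda1, 0.153 for Btg2 and 0.156 for Mbl1. Since they were picked for nearness to Ust on these same arrays, a higher diabetic mean largely follows from that choice. The same holds for the high wildtype 3 of Gnpda1 and Mbl1. Gnpda1, a glucosamine-phosphate deaminase, read 6.98, 7.25 and 7.15 in diabetic livers 1, 2 and 3, against 6.57, 6.82 and 7.06 in wildtype livers 1, 2 and 3. As for Ust, wildtype 3 was the highest wildtype array and lay above diabetic 1. Mbl1, a mannose-binding lectin secreted by the liver, read 10.63, 10.51 and 10.64 in diabetic livers 1, 2 and 3, against 10.19, 10.24 and 10.54 in wildtype livers 1, 2 and 3, with wildtype 3 above diabetic 2. The differences of Gnpda1 and Mbl1 were 0.31 and 0.27 (limma adjusted p = 0.928 for both), with 0.19 for Gnpda1 without wildtype 1. Btg2, an antiproliferative gene, read 5.67, 5.86 and 5.80 in diabetic livers 1, 2 and 3. In wildtype livers 1, 2 and 3 it read 5.02, 5.10 and 5.13. Unlike for Ust, its groups did not overlap, as for 7.87% of all probe sets. Btg2 differed by 0.70 (limma adjusted p = 0.0412, or 0.142 with the replicate number as a block). With 1 array left out, its limma adjusted p lay between 0.124 and 0.323.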
